A study of Oncorhynchus mykiss with 24 samples.

Results

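Levels of liver mRNAs that encode translation factors, protein chaperones, proteases, ubiquitin and proteasome proteins and enzymes of amino acid metabolism were compared among 4 groups of rainbow trout (Oncorhynchus mykiss). The oligos were taken from the spots that the study had listed as different between groups, by their assigned functional category (protein synthesis, protein biosynthetic process, translation, protein folding, protein metabolism or proteolysis). Ribosomal proteins, superoxide dismutases, complement proteins, lectins and polypeptide N-acetylgalactosaminyltransferase 8 were left out. This gave 43 oligos of the 486 listed, on an array of 43689 oligos, and the 43 oligos carry 30 different descriptions. Of the 43, 41 passed the filter on low signal used for all tests. All 43 were chosen for differences between these same fish, so every difference between a pair of groups given below is a description, without a test.

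The 4 groups were domesticated trout (D) of a commercial strain selected for growth, wild-domesticated F1 hybrids (W/D), wild trout of the Pennask Lake strain matched to D in size and reared a year earlier (Ws), and wild trout of the same strain matched to D in age (Wa). Livers of 6 fish per group were sampled after a day without food. By the study's methods D, W/D and Wa each came from 1 cross, with the D mother shared by D and W/D and the wild father shared by W/D and Wa, whereas Ws came from randomly mated crosses. Family and strain cannot be told apart in D, W/D and Wa, nor age and year class between Ws and Wa. Each of the 24 arrays carried 1 fish in the Cy5 channel and a pool of 6 Ws fish in the Cy3 channel. A level is given here as the log2 ratio of the fish to this pool, so that 0 means equal normalised signal of fish and pool. It says nothing of the level of 1 mRNA against another. The dyes were the same on all arrays, so that a difference between fish and pool and one between dyes cannot be told apart in a ratio. The groups had fixed positions on each slide, so that position and group cannot be told apart. Because whole liver was extracted, fewer cells of a type and less mRNA per cell cannot be told apart.

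The median Cy5 signal of all oligos on an array was between 197 and 246, over a local background of 123 to 134, and 33.6% to 46.2% of the oligos on an array were above background (by 2 SD of the local background). The chosen oligos that passed the filter were brighter, with a median signal of 1175 (range 417 to 12524), against 669 for all oligos that passed it, and 26 of the 41 were above background on all 24 arrays. The 3 listed hepatocyte markers (serum albumin 2, fibrinogen beta chain and apolipoprotein A-I-2) were above background on every array, with group medians of the signal between 1134 and 9856, and their mean log2 ratio had medians of 0.90 in D, 0.65 in W/D, 0.066 in Ws and 0.23 in Wa. Markers of other cells were taken from the listed spots as well. All of these markers were therefore chosen for differences between these same fish, and their values are given as a description. Averaged over the 19 measured of 35 listed hemoglobin oligos, the log2 ratio was from 0.091 to 2.16 in D (median 0.63), from -0.15 to 0.71 in W/D (median 0.16), from -1.08 to -0.16 in Ws (median -0.68) and from -0.32 to 0.19 in Wa (median -0.19). Over 7 immunoglobulin and lysozyme oligos it had medians of 1.07 in D, 1.03 in W/D, 0.37 in Ws and -0.048 in Wa. The paper reports decreased expression in D of a membrane-bound immunoglobulin mu chain, so that this mean need not hold for each of these oligos. Over 6 sarcomeric actin oligos the medians were -0.57 in D, -1.87 in W/D, 0.26 in Ws and -1.45 in Wa. The listed spots held no other pancreatic marker besides trypsinogen. The part of these cell types in the results below was not tested.

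Translation of an mRNA begins when initiation factors bring it to the small ribosomal subunit, and elongation factors then deliver each charged tRNA. Chaperones of the cytosol, endoplasmic reticulum and mitochondrion fold the products, the ubiquitin and proteasome system and the lysosome degrade them, and the amino acids set free are reused or broken down, for which the liver is the main organ. The liver also makes and secretes most plasma proteins, among them clotting factors and protease inhibitors.

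Recomputed from the spot intensities, 21 of the 41 oligos differed by 2-fold or more in D versus Wa with an adjusted p (limma, Benjamini-Hochberg) no higher than 0.05. Of these 9 were higher and 12 lower in D. Of all 8679 tested oligos 3.58% passed (2.00% higher and 1.58% lower). In D versus Ws 19 passed (14 higher and 5 lower), against 3.45% of all oligos (2.43% higher and 1.01% lower). Fewer passed in D versus W/D (3 higher and 3 lower, against 0.357% and 0.392% of all, together 0.749%), in W/D versus Wa (3 higher and 1 lower, against 0.634% and 0.300%, together 0.933%), in W/D versus Ws (7 higher and 2 lower, against 1.39% and 0.668%, together 2.06%) and in Ws versus Wa (none higher and 1 lower, against 0.380% and 0.507%, together 0.887%). Among oligos with values in all 12 fish of a pairing, the ranges of the groups did not overlap for 13 of 28 in D versus Wa (3.63% of all such oligos), 12 of 30 in D versus Ws (3.43%), 4 of 26 in D versus W/D (1.28%), 4 of 29 in W/D versus Wa (1.25%), 6 of 31 in W/D versus Ws (2.02%) and 2 of 33 in Ws versus Wa (1.61%). Because the oligos were chosen from lists of these pairings, their excess over all oligos follows from the choice and nothing is read from it. Oligos of 1 description were counted apart. Those past both thresholds carried 19 descriptions in D versus Wa, 14 in D versus Ws and 4 in D versus W/D. They carried 2 in W/D versus Wa, where the 3 higher were all of EIF3I, 6 in W/D versus Ws and 1 in Ws versus Wa. The 41 oligos stand on the study's lists 77 times, and 56 of these differences passed here. The listed difference that was smallest here was that of aminopeptidase W07G4.4 in W/D versus Ws, at 0.67 ± 0.27 (SE), and 4 differences that no list gives passed, the smallest of them that of a placental protein 11 oligo in D versus Ws at -1.06 ± 0.30. The median difference over the 41 oligos was 0.59 in D versus Wa, 0.74 in D versus Ws, 0.031 in D versus W/D, 0.21 in W/D versus Wa, 0.63 in W/D versus Ws and -0.39 in Ws versus Wa, where that over all tested oligos was between -0.024 and 0.024. All differences are differences of mean log2 ratios with the SE of the fit. The count for W/D versus Ws was 5 without Ws replicate 5, and the single call in Ws versus Wa was lost without Ws replicate 2, Ws replicate 5 or Wa replicate 5, and became 2 without Wa replicate 4. Other processing also moved these counts. Median centring in place of loess gave 3 in D versus W/D and 2 in Ws versus Wa. The deposited ratios gave 7 in W/D versus Wa, 14 in W/D versus Ws and 2 in Ws versus Wa. In Ws versus Wa 0 passed without background correction and 3 from the Cy5 channel alone. With signal required on all 24 arrays, 10 members were left, and the counts were 6 in D versus Wa, 3 in D versus Ws, 2 in D versus W/D, 0 in W/D versus Wa, 1 in W/D versus Ws and 0 in Ws versus Wa. Shares over all oligos are not given here for these alternatives. From these counts alone, a shift of the chosen oligos cannot be told apart from a shift of all oligos.

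**Figure D1:**
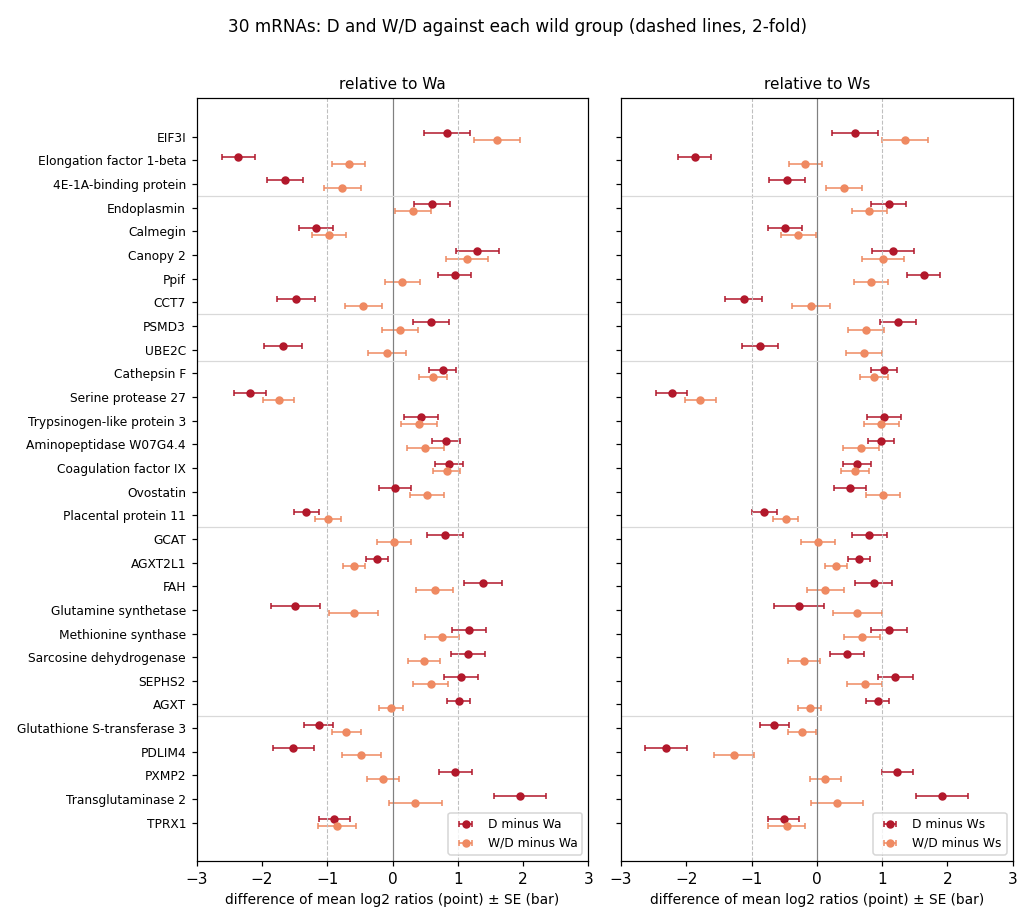
Difference of mean log2 ratios (point) with its SE (bar) for 30 mRNAs, each shown by 1 oligo, in D (dark red) and W/D (orange) versus Wa (left panel) and Ws (right panel). Grey lines separate translation, folding, ubiquitin and proteasome, proteases and inhibitors, amino acid metabolism and others, and dashed lines mark 2-fold. In D, elongation factor 1-beta (-2.36) and serine protease 27 (-2.18) lay farthest to the left in the panel for Wa, and PDLIM4 (-2.32) and serine protease 27 (-2.23) in the panel for Ws, and these spots were above background on only 3 or 4 of 6 D arrays.

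Translation factors made up 3 descriptions, which did not differ in the same direction. Elongation factor 1-beta, the exchange factor subunit that recharges the carrier of charged tRNAs, had log2 ratios from -2.07 to -1.0 in D (median -1.77), from -0.40 to 0.78 in W/D (median -0.027), from -0.70 to 0.92 in Ws (median 0.27) and from 0.22 to 1.18 in Wa (median 0.62). All 6 D fish lay below every fish of the other 3 groups. The level in D differed by -2.36 ± 0.25 versus Wa, -1.87 ± 0.25 versus Ws and -1.69 ± 0.25 versus W/D. In W/D the difference was -0.67 ± 0.25 versus Wa and -0.18 ± 0.25 versus Ws. The spot was dim in D, with a median signal of 217 and 4 of 6 arrays above background, against 484 in W/D, 496 in Ws and 640 in Wa. Without background correction the difference of D versus Wa was -1.85.

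Eukaryotic translation initiation factor 3 subunit I (EIF3I), a part of the complex that joins the mRNA to the small ribosomal subunit, had 3 oligos. For the brightest of them the log2 ratio ran from 0.19 to 1.43 in D (median 0.49), from 0.63 to 2.14 in W/D (median 1.39), from -0.85 to 0.95 in Ws (median 0.30) and from -1.29 to 1.41 in Wa (median -0.17). The hybrids had the highest median, although single wild fish reached into their range. W/D was 1.60 ± 0.35 higher than Wa and 1.35 ± 0.35 higher than Ws. Across the 3 oligos the difference of W/D was between 1.26 and 1.69 versus Wa and between 1.19 and 1.39 versus Ws. The difference of D was between -0.77 and -0.48 versus W/D and between 0.63 and 1.21 versus Wa. The brightest oligo was above background on 4 of 6 Ws arrays and on all 6 in each other group. The oligo with the difference of 1.21 was above background on 3 of 6 Wa arrays and on all 6 in each other group. The remaining factor, eukaryotic translation initiation factor 4E-1A-binding protein, belongs to a family that holds back the cap-binding factor eIF4E when nutrients are short. The log2 ratio ran from -0.71 to 0.32 in D (median -0.05), from 0.26 to 1.48 in W/D (median 0.64), from -0.32 to 1.68 in Ws (median 0.099) and from 0.88 to 1.98 in Wa (median 1.54). It was highest in Wa, and no D fish reached the range of Wa. The spot was dim in D, with a median signal of 314. It was above background on 4 of 6 arrays in D and 5 of 6 in Ws, against 6 of 6 in W/D and in Wa. The difference was -1.65 ± 0.28 for D versus Wa, -0.77 ± 0.28 for W/D versus Wa and -1.18 ± 0.28 for Ws versus Wa. Relative to Ws it was -0.46 ± 0.28 in D and 0.42 ± 0.28 in W/D.

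Folding was represented by 5 descriptions on 12 oligos. Endoplasmin (HSP90B1), the HSP90 chaperone of the endoplasmic reticulum, had 5 oligos, 4 of them the brightest of the 43, with mean signals of 10148 to 12524. For the brightest, the log2 ratio was from 0.061 to 1.04 in D (median 0.50, 5 fish), from -0.44 to 0.78 in W/D (median 0.25, 5 fish), from -1.26 to 0.26 in Ws (median -0.63) and from -0.68 to 0.32 in Wa (median -0.11, 5 fish), where values of saturated or otherwise marked spots are missing. Ws had the lowest median, and the ranges of all groups overlapped. Over the 5 oligos, the difference versus Ws was between 0.73 and 1.10 in D and between 0.80 and 1.35 in W/D. Relative to Wa it was between 0.20 and 0.61 in D and between 0.31 and 0.62 in W/D, and Ws versus Wa was between -0.73 and -0.39.

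Calreticulin, another chaperone of the endoplasmic reticulum and the only further member of a list of folding genes of this compartment among the listed spots, had 3 oligos, of which 2 passed the filter. Both stand on the study's lists, and neither passed both thresholds in any pairing. Their differences versus Ws were 0.85 and 0.99 in D and 0.79 and 0.80 in W/D, and versus Wa 0.43 and 0.46 in D and 0.26 and 0.37 in W/D. Canopy 2, a small protein of the endoplasmic reticulum, had log2 ratios from 0.13 to 0.73 in D (median 0.48), from -0.99 to 1.24 in W/D (median 0.43), from -2.14 to 0.31 in Ws (median -0.58) and from -1.14 to -0.0046 in Wa (median -0.98). D and most W/D fish were higher than the Wa fish, and D and Wa did not overlap. The difference versus Wa was 1.30 ± 0.33 in D and 1.14 ± 0.33 in W/D, and versus Ws 1.17 ± 0.33 in D and 1.01 ± 0.33 in W/D. Calmegin, a relative of the chaperone calnexin that is known from the mammalian testis, showed the opposite order, from -0.67 to -0.36 in D (median -0.49), from -0.87 to 0.42 in W/D (median -0.34), from -1.11 to 0.75 in Ws (median 0.052) and from 0.11 to 1.57 in Wa (median 0.63). It was lowest in D and highest in Wa, without overlap of these groups. D differed by -1.18 ± 0.26 and W/D by -0.97 ± 0.26 from Wa.

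The mitochondrial peptidyl-prolyl cis-trans isomerase (Ppif, cyclophilin D), a folding enzyme of the mitochondrial matrix, had 4 oligos with like patterns. For the brightest the log2 ratio was from 1.37 to 2.30 in D (median 1.69), from 0.31 to 1.59 in W/D (median 0.84, 5 fish), from -0.93 to 0.83 in Ws (median 0.17) and from 0.41 to 1.48 in Wa (median 0.63). Every D fish was above every Ws fish. The 4 oligos differed by 1.32 to 1.63 in D versus Ws, by 0.84 to 1.25 in D versus Wa and by 0.63 to 1.04 in W/D versus Ws. The eta subunit of the T-complex protein 1 (CCT7), a part of the chaperonin that folds actin and tubulin in the cytosol, went the other way, with log2 ratios from -1.35 to 0.26 in D (median -0.91), from -0.062 to 1.04 in W/D (median 0.28), from -0.31 to 0.86 in Ws (median 0.57) and from 0.16 to 1.99 in Wa (median 0.62). It was lower in D than in Wa and Ws on all 6 slides, although 2 D fish were within the range of the Ws fish. The difference of D was -1.48 ± 0.29 versus Wa, -1.12 ± 0.29 versus Ws and -1.04 ± 0.29 versus W/D. In D, 3 of 6 arrays were above background for this spot.

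**Figure D2:**
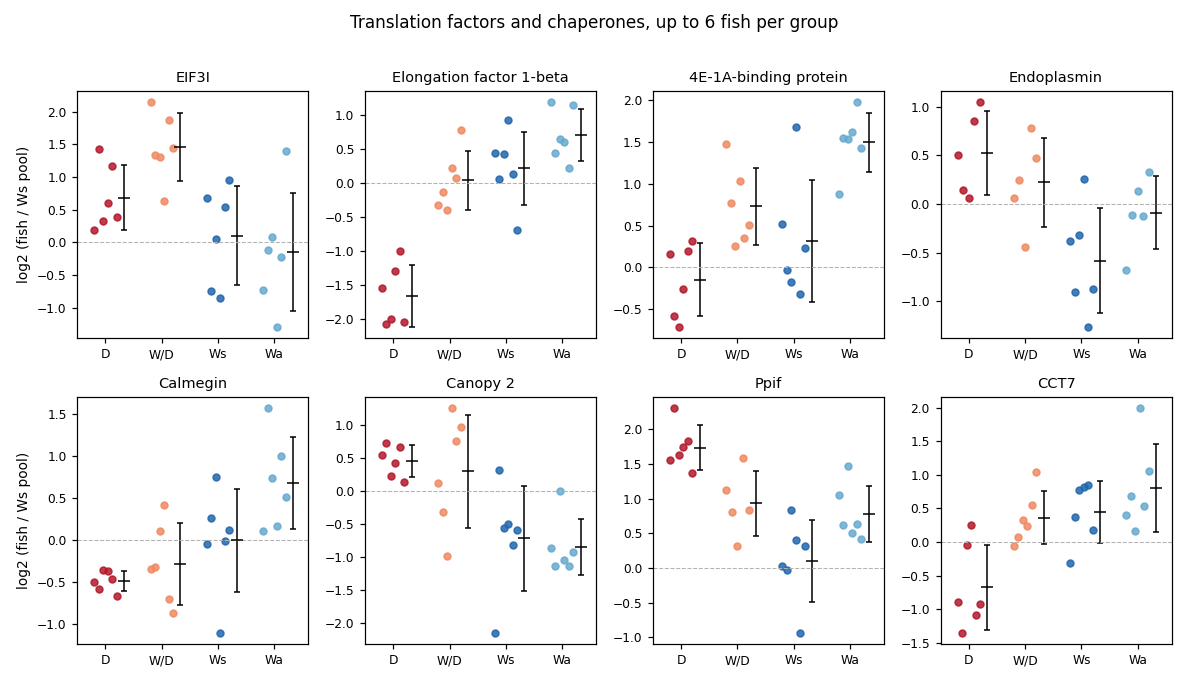
Log2 ratio of each fish to the Ws pool (points) with the group mean and SD (black mark and bar) for translation factors and folding proteins, with D, W/D, Ws and Wa from left to right in each panel. Each panel has its own vertical scale and shows 1 oligo. Elongation factor 1-beta was lowest in all 6 D fish, and EIF3I had its highest median in W/D.

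The ubiquitin and proteasome system was represented by 2 descriptions. Ubiquitin-conjugating enzyme E2 C (UBE2C), which works with the anaphase-promoting complex in dividing cells, had 2 oligos. The brighter had log2 ratios from -1.55 to -0.39 in D (median -1.37), from -0.50 to 0.93 in W/D (median 0.41), from -0.63 to -0.0083 in Ws (median -0.47) and from -0.87 to 1.14 in Wa (median 0.55, 5 fish). For this oligo D had the lowest median and Ws the next, below W/D and Wa, and the ranges of D and Wa overlapped. In the dimmer oligo D and Wa did not overlap. Over both oligos D differed by -1.68 and -1.47 from Wa, by -1.59 and -1.25 from W/D and by -0.87 and -0.77 from Ws, and Ws differed by -0.81 and -0.70 from Wa. The brighter oligo was above background on 1 of 6 arrays in D and 2 of 6 in Ws, against 6 of 6 in W/D and in Wa. For the dimmer oligo these were 5 of 6 in D and 5 of 6 in Ws, against 6 of 6 in W/D and in Wa. None of the markers of dividing cells on a list of cyclin B, CDK1, CDC20, topoisomerase 2A, Ki-67, PCNA, histone H2A and stathmin was among the listed spots, so that cell division was not assessed here.

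PSMD3, a subunit in the lid of the 26S proteasome, had log2 ratios from 0.69 to 1.72 in D (median 0.93), from -0.25 to 1.35 in W/D (median 0.57), from -1.17 to 0.40 in Ws (median -0.083) and from -0.12 to 1.46 in Wa (median 0.33). All D fish were above all Ws fish, and D overlapped with W/D and Wa. The spot was above background on 4 of 6 arrays in Ws and 5 of 6 in Wa, against 6 of 6 in D and in W/D. The difference versus Ws was 1.24 ± 0.28 in D and 0.76 ± 0.28 in W/D, and Ws versus Wa was -0.65 ± 0.28. Of the other proteasome genes, 4 oligos of the core subunits alpha type-5 and type-6 were listed and measured. A single one, for alpha type-6, passed the test, in D versus W/D, at 1.20 ± 0.22, and the other 2 oligos of that subunit differed by 0.95 ± 0.21 and 0.50 ± 0.22. Relative to Ws the 4 oligos were 0.56 to 0.88 higher in D, while versus Wa they differed by -0.075 to 0.74.

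Among proteases, serine protease 27 had the widest differences from the wild groups in both D and W/D. It is a trypsin-like enzyme known from the human pancreas and epithelia. Log2 ratios were from -3.0 to -2.0 in D (median -2.62), from -2.64 to -1.26 in W/D (median -2.26), from -0.98 to 0.14 in Ws (median -0.31) and from -0.75 to 0.28 in Wa (median -0.63). D and W/D lay below both wild groups with no overlap, and they overlapped with each other. The difference versus Wa was -2.18 ± 0.24 in D and -1.74 ± 0.24 in W/D, and versus Ws -2.23 ± 0.24 in D and -1.79 ± 0.24 in W/D. The wild groups differed by 0.043 ± 0.24 (Ws versus Wa). The median signal was 234 in D and 254 in W/D, where 3 of 6 D arrays and 4 of 6 W/D arrays were above background, against 762 in Ws and 649 in Wa. Without background correction the difference of D was -1.68 versus Wa and -1.73 versus Ws.

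Trypsinogen-like protein 3, the precursor of a digestive protease of the exocrine pancreas, did not follow serine protease 27. Its log2 ratio was from 0.37 to 1.59 in D (median 1.15), from 0.64 to 1.33 in W/D (median 0.96, 5 fish), from -0.73 to 0.98 in Ws (median -0.078) and from 0.087 to 1.25 in Wa (median 0.50). D and W/D had the higher medians and overlapped with both wild groups. The difference was 1.03 ± 0.26 in D versus Ws, 0.99 ± 0.27 in W/D versus Ws and 0.44 ± 0.26 in D versus Wa. Cathepsin F, a cysteine protease of the lysosome, had 2 oligos. The one that passed the filter had log2 ratios from 0.51 to 1.22 in D (median 1.16), from 0.06 to 1.32 in W/D (median 1.04, 5 fish), from -0.30 to 0.39 in Ws (median -0.014) and from 0.068 to 0.66 in Wa (median 0.20). In both D and W/D, replicate 5 was the lowest fish and stood apart from the rest of its group. The difference versus Ws was 1.03 ± 0.20 in D and 0.88 ± 0.21 in W/D. The other oligo was marked by the scanner software on 16 of 24 arrays. With these marks disregarded its difference versus Ws was 1.14 ± 0.18 in D and 1.05 ± 0.18 in W/D, and versus Wa 1.01 ± 0.18 in D and 0.92 ± 0.18 in W/D.

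A putative aminopeptidase, named W07G4.4 after a gene of the worm Caenorhabditis elegans, had log2 ratios from 0.51 to 1.45 in D (median 1.29, 5 fish), from 0.74 to 0.95 in W/D (median 0.84, 2 fish), from -0.16 to 0.48 in Ws (median 0.20) and from 0.21 to 0.59 in Wa (median 0.27, 5 fish). Of its values, 6 of 24 were missing because the spot was marked, 4 of them in W/D. The D fish lay above the Ws fish, and the difference was 0.99 ± 0.20 versus Ws and 0.81 ± 0.21 versus Wa. Coagulation factor IX, a clotting protease that the liver secretes, had log2 ratios from 0.13 to 0.99 in D (median 0.69), from 0.32 to 1.02 in W/D (median 0.55), from -0.32 to 0.26 in Ws (median -0.016) and from -0.81 to 0.60 in Wa (median -0.34). It was higher in D than in Wa and Ws on all 6 slides, and the same was true of W/D. The difference versus Wa was 0.86 ± 0.21 in D and 0.83 ± 0.21 in W/D, and D versus W/D was 0.031 ± 0.21.

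Ovostatin belongs to the alpha-2-macroglobulin family of protease inhibitors and is known from bird eggs. The log2 ratio ran from -0.64 to 0.84 in D (median 0.18, 5 fish), from 0.10 to 1.12 in W/D (median 0.64, 4 fish), from -0.58 to -0.036 in Ws (median -0.42) and from -0.41 to 0.42 in Wa (median 0.27). The hybrids were above all Ws fish, with a difference of 1.01 ± 0.26, whereas D overlapped with every group and differed by 0.52 ± 0.25 from Ws and 0.04 ± 0.25 from Wa. Placental protein 11, which the study listed under protein metabolism and whose mammalian homologue is known as an endoribonuclease, had 2 oligos. The brighter had log2 ratios from -1.32 to -0.73 in D (median -1.0), from -0.96 to -0.31 in W/D (median -0.65), from -0.76 to 0.22 in Ws (median -0.12) and from -0.064 to 0.88 in Wa (median 0.23). The levels followed the order D, W/D, Ws and Wa from low to high, and neither D nor W/D overlapped with Wa. The difference was -1.32 ± 0.20 in D versus Wa and -0.99 ± 0.20 in W/D versus Wa. D was -0.80 ± 0.20 versus Ws, W/D -0.48 ± 0.20 versus Ws, D -0.33 ± 0.20 versus W/D and Ws -0.52 ± 0.20 versus Wa. The dimmer oligo had a measured difference of -1.48 ± 0.30 in D versus Wa, but it was above background on only 1 of 6 D arrays, against 6 of 6 in Wa, so that the background limits its level in D. Its W/D fish, with 5 of 6 arrays above background as in Ws, differed by 0.036 ± 0.30 from Ws.

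**Figure D3:**
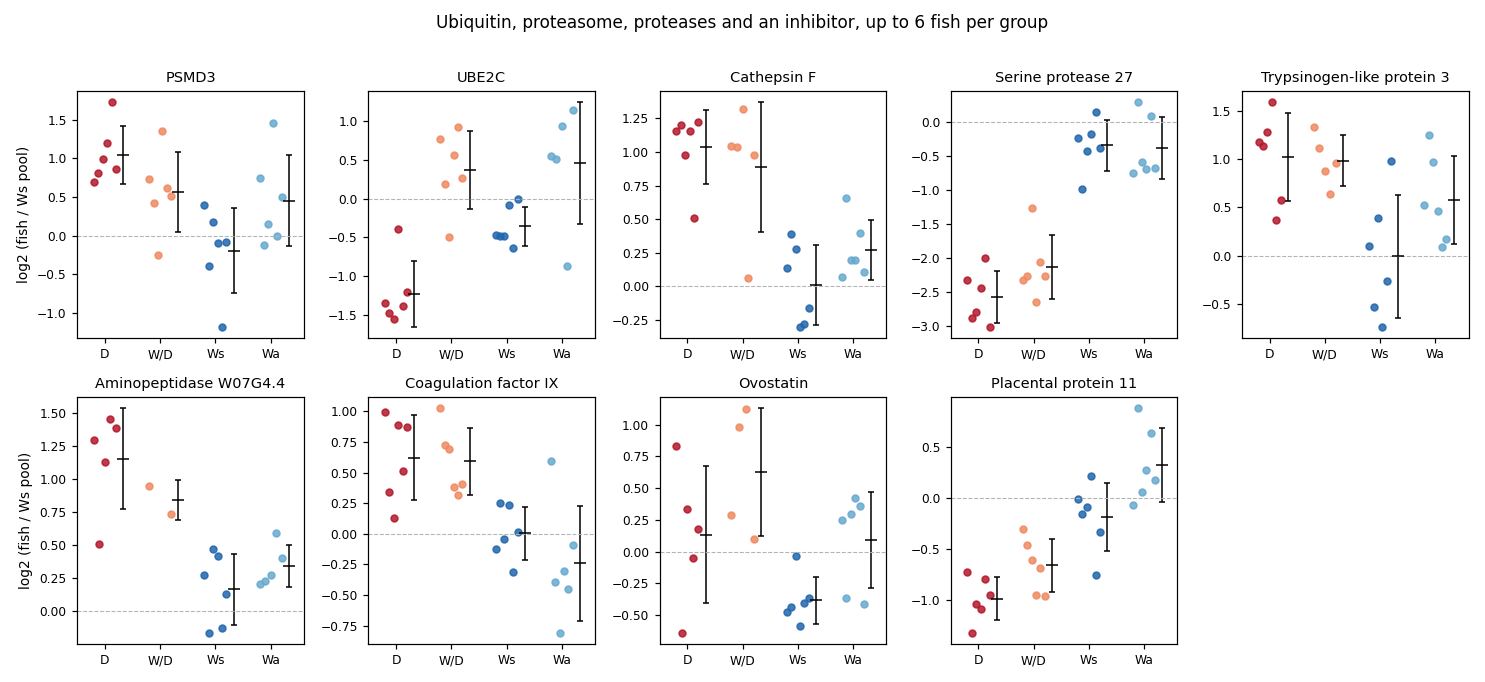
Log2 ratio of each fish to the Ws pool (points) with the group mean and SD (black mark and bar) for ubiquitin and proteasome proteins, proteases and ovostatin, in D, W/D, Ws and Wa from left to right. Fewer than 6 points mean that marked spots are missing. For serine protease 27 the D and W/D fish were between -3.0 and -1.26 and the wild fish between -0.98 and 0.28.

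A further 8 descriptions, with 1 oligo each, were grouped here as enzymes of amino acid metabolism. Serine-pyruvate aminotransferase (AGXT), which converts glyoxylate to glycine, had SDs of 0.32 in D, 0.24 in W/D, 0.20 in Ws and 0.24 in Wa. Log2 ratios were from 0.46 to 1.20 in D (median 1.08), from -0.41 to 0.27 in W/D (median -0.14), from -0.30 to 0.20 in Ws (median 0.015) and from -0.35 to 0.29 in Wa (median -0.12). All D fish lay above all fish of the other 3 groups, whose medians were between -0.14 and 0.015. D differed by 1.01 ± 0.18 from Wa, 0.93 ± 0.18 from Ws and 1.04 ± 0.18 from W/D, while W/D versus Wa was -0.028 ± 0.18. Sarcosine dehydrogenase, a mitochondrial enzyme that forms glycine from sarcosine, had log2 ratios from 0.045 to 0.80 in D (median 0.084, 5 fish), from -1.50 to 0.31 in W/D (median -0.28), from -0.63 to 0.59 in Ws (median -0.25) and from -1.24 to -0.34 in Wa (median -0.99). It was higher in D than in all Wa fish. The difference was 1.15 ± 0.26 in D versus Wa, 0.47 ± 0.26 in D versus Ws and 0.49 ± 0.25 in W/D versus Wa. The 2-amino-3-ketobutyrate coenzyme A ligase (GCAT), which completes the conversion of threonine to glycine, had log2 ratios from 0.52 to 1.51 in D (median 1.24, 5 fish), from -0.31 to 1.48 in W/D (median 0.065), from -0.31 to 0.68 in Ws (median 0.38) and from -0.27 to 0.59 in Wa (median 0.44). The D fish had the highest median and overlapped with the other groups. D was 0.80 ± 0.27 higher than Wa, 0.80 ± 0.27 higher than Ws and 0.78 ± 0.27 higher than W/D.

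Fumarylacetoacetase (FAH), the last enzyme of tyrosine breakdown, had log2 ratios from 0.40 to 1.79 in D (median 1.39), from 0.031 to 1.48 in W/D (median 0.36), from -0.013 to 1.22 in Ws (median 0.27) and from -0.63 to 0.93 in Wa (median -0.28). D had the highest median, with overlap. The difference of D was 1.38 ± 0.29 versus Wa, 0.87 ± 0.29 versus Ws and 0.74 ± 0.29 versus W/D. Homogentisate 1,2-dioxygenase, an earlier enzyme of the same pathway and the only other listed gene on a list of further enzymes of amino acid metabolism, passed the test in no pairing. Its difference was 0.73 ± 0.21 in D and 0.74 ± 0.21 in W/D versus Ws, and 0.39 ± 0.21 in D versus Wa. Methionine synthase, which remakes methionine from homocysteine, had log2 ratios from 1.34 to 1.76 in D (median 1.59), from 0.38 to 1.65 in W/D (median 1.30), from -0.17 to 1.15 in Ws (median 0.48, 5 fish) and from -0.45 to 1.16 in Wa (median 0.30). All D fish were above all fish of both wild groups. The difference of D was 1.17 ± 0.26 versus Wa and 1.10 ± 0.27 versus Ws, and that of W/D was 0.76 ± 0.26 versus Wa and 0.69 ± 0.27 versus Ws. Selenide, water dikinase 2 (SEPHS2), which makes the selenium donor for selenocysteine, had log2 ratios from 0.87 to 2.31 in D (median 1.45), from 0.44 to 1.93 in W/D (median 0.92), from -0.098 to 0.76 in Ws (median 0.28) and from -0.27 to 0.69 in Wa (median 0.58). It too was higher in all D fish than in all wild fish, by 1.05 ± 0.27 versus Wa and 1.20 ± 0.27 versus Ws.

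Glutamine synthetase, which binds ammonia into glutamine, was lower in D and in Ws than in Wa. Its log2 ratio was from -1.08 to 0.11 in D (median -0.34), from -0.56 to 1.68 in W/D (median 0.53), from -1.23 to 1.0 in Ws (median -0.38) and from 0.083 to 2.41 in Wa (median 0.85). The spread among fish was wide in W/D, Ws and Wa, with SDs of 0.80 in W/D, 0.77 in Ws and 0.94 in Wa. The difference from Wa was -1.49 ± 0.38 in D, -0.60 ± 0.38 in W/D and -1.22 ± 0.38 in Ws. Its spot was the dimmest of those that passed the filter, with 3 of 6 arrays above background in D, 5 in W/D, 2 in Ws and 6 in Wa. Alanine-glyoxylate aminotransferase 2-like 1 (AGXT2L1), named for its likeness to aminotransferases, was the oligo listed for the wild pairing alone. It was grouped here by that name, and whether it acts on amino acids was not assessed. The log2 ratio ran from 0.27 to 1.06 in D (median 0.55), from -0.053 to 0.43 in W/D (median 0.30), from -0.31 to 0.11 in Ws (median 0.043) and from 0.60 to 1.23 in Wa (median 0.85). All Wa fish lay above all Ws and all W/D fish. The difference from Wa was -0.24 ± 0.17 in D, -0.59 ± 0.17 in W/D and -0.89 ± 0.17 in Ws, and SDs were between 0.17 and 0.28.

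**Figure D4:**
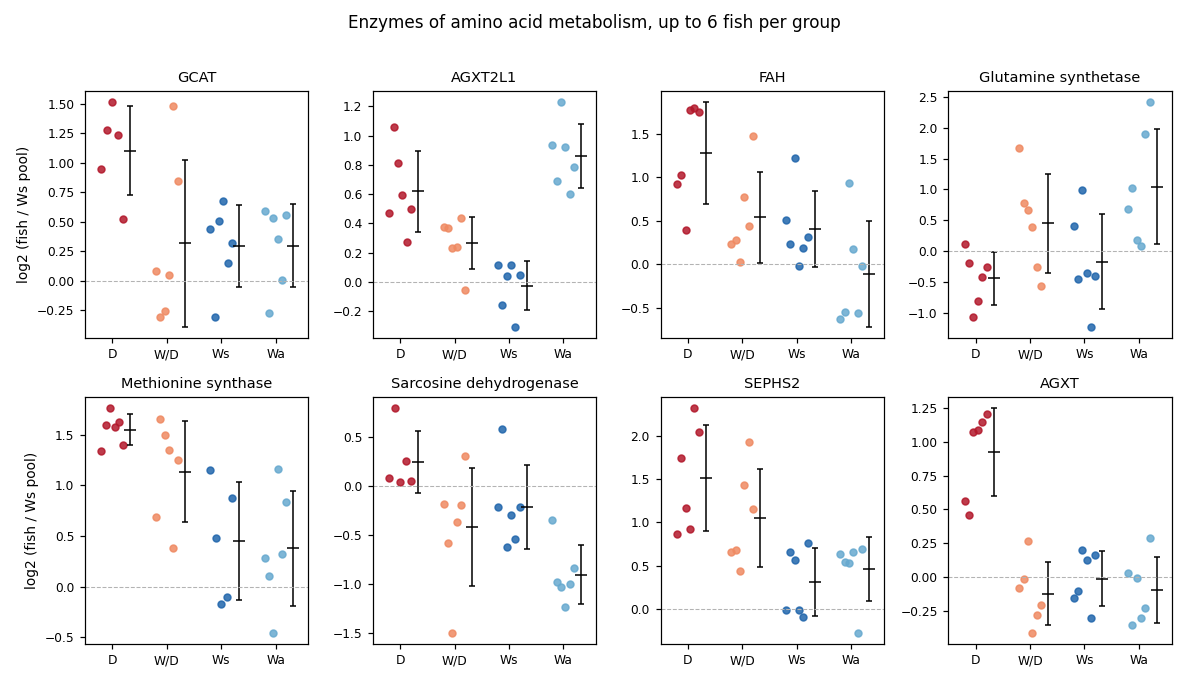
Log2 ratio of each fish to the Ws pool (points) with the group mean and SD (black mark and bar). Groups are D, W/D, Ws and Wa from left to right. The mRNAs were grouped here as enzymes of amino acid metabolism. AGXT was higher in all 6 D fish than in every other fish, and glutamine synthetase and AGXT2L1 had their highest medians in Wa.

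The remaining 5 descriptions had been placed in the same categories, although their names are not those of translation, folding or proteolysis. PDLIM4, a protein of the actin cytoskeleton, had log2 ratios from -3.53 to -1.71 in D (median -3.08, 5 fish), from -2.13 to -1.23 in W/D (median -1.74), from -0.88 to 0.38 in Ws (median -0.60) and from -2.13 to -0.59 in Wa (median -1.13). It was lowest in D and next lowest in W/D, and neither group overlapped with Ws. The difference versus Ws was -2.32 ± 0.32 in D and -1.27 ± 0.31 in W/D, and versus Wa -1.52 ± 0.32 in D. The spot was above background on 3 of 6 D arrays and on all 6 in each other group, so that the background limits its level in D. PXMP2, a channel protein of the peroxisomal membrane, had 2 oligos. The brighter had log2 ratios from 0.70 to 1.57 in D (median 0.86), from -1.13 to 0.64 in W/D (median 0.024), from -0.85 to 0.064 in Ws (median -0.22) and from -0.24 to 0.20 in Wa (median -0.0064, 5 fish). All D fish were above all other fish. Over both oligos D was 0.96 and 1.04 higher than Wa, 1.24 and 1.32 higher than Ws and 1.11 and 1.12 higher than W/D, whereas W/D versus Wa was -0.14 and -0.078.

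Transglutaminase 2, an enzyme that cross-links proteins, was marked on 2 D arrays and did not pass the filter. With these marks disregarded its log2 ratio was from 0.57 to 3.13 in D (median 1.85), from -0.22 to 0.61 in W/D (median 0.38), from -1.08 to 0.61 in Ws (median 0.016) and from -1.16 to 0.55 in Wa (median -0.10). The D fish spread widely (SD 1.26) and were above all Wa fish. The difference of D was 1.95 ± 0.40 versus Wa, 1.91 ± 0.40 versus Ws and 1.60 ± 0.40 versus W/D as measured. The spot was above background on 3 of 6 arrays in D, 4 in W/D, 1 in Ws and 1 in Wa. The background limits the level of the wild groups and with it the size of these differences. The level in D is uncertain too, as 2 of its arrays were marked and only 3 of 6 were above background. Glutathione S-transferase 3, of a family that couples glutathione to foreign compounds, had log2 ratios from -1.32 to -0.16 in D (median -0.92), from -1.11 to 0.057 in W/D (median -0.34), from -0.48 to 0.22 in Ws (median -0.22) and from -0.23 to 0.74 in Wa (median 0.39). Its order from low to high was D, W/D, Ws and Wa, and on all 6 slides D was below W/D, Ws and Wa. The difference was -1.13 ± 0.22 in D and -0.71 ± 0.22 in W/D versus Wa. The oligo described as tetra-peptide repeat homeobox protein 1 (TPRX1) had log2 ratios from -1.58 to -0.10 in D (median -0.60), from -1.17 to -0.14 in W/D (median -0.46, 3 fish), from -0.47 to 0.59 in Ws (median -0.22) and from 0.028 to 0.46 in Wa (median 0.26). D and W/D lay below all Wa fish, and the difference was -0.89 ± 0.23 in D and -0.85 ± 0.29 in W/D.

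The hybrids were set against the mean of D and Wa, the groups with which they share a parent. For 16 of the 30 mRNAs the oligo shown differed at least 2-fold between the D and Wa means and passed the filter. The W/D mean lay between the D and Wa means in 15 of these 16. On a scale where Wa is 0% and D is 100%, W/D was from -2.72% (AGXT) to 88.1% (Canopy 2), with a median of 46.7%. It was nearer to Wa in 9 and nearer to D in 7. UBE2C (5.13%) and elongation factor 1-beta (28.3%) were near Wa, and serine protease 27 (79.8%), calmegin (82.4%) and the brighter oligo of placental protein 11 (75.2%) near D. The dimmer oligo of placental protein 11 was at 25.5%, nearer to Wa. Serine protease 27 was near the background in both D and W/D (3 of 6 and 4 of 6 arrays above it). In D the same held for UBE2C (1 of 6), elongation factor 1-beta (4 of 6) and the dimmer placental protein 11 oligo (1 of 6). In D 4E-1A-binding protein, CCT7, PDLIM4 and glutamine synthetase were also near it. The background limits the positions of all these oligos. All positions on the scale rest on the same differences that chose the oligos and are given as a description.

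In limma's test of W/D against the mean of D and Wa, which no list of the study uses, none of the 41 oligos had an adjusted p of 0.05 or less, where 0.219% of all 8679 oligos passed. At an unadjusted p under 0.05 there were 14, of which 12 had been listed for a hybrid pairing. The share of all oligos at this unadjusted threshold is not given here, so that nothing is read from counts at it. The 3 EIF3I oligos had the lowest adjusted p, with W/D above the mean of D and Wa by 1.09 ± 0.25 (adjusted p = 0.0563), 1.19 ± 0.30 (adjusted p = 0.0985) and 0.95 ± 0.27 (adjusted p = 0.164), from limma. They had been listed for the pairings of W/D with both wild groups, so that the same W/D fish had chosen them. With the slide as a replicate block, 1 of them passed (limma adjusted p = 0.0382), and all 3 passed without Wa replicate 6, with limma adjusted p of 0.0236, 0.0229 and 0.0265. Without D replicate 1, Ws replicate 2, 4 or 6, or Wa replicate 1, a single EIF3I oligo passed. Ws is not part of this contrast, so that leaving out a Ws fish did not change the differences themselves. In the other fits with 1 fish left out none passed. Without W/D replicate 1 the limma adjusted p were 0.186, 0.269 and 0.381, and with the deposited ratios 0.196, 0.0734 and 0.129. Shares over all oligos are not given for these fits, so that nothing is read from the passes. The study's one-way ANOVA over the groups drew on the W/D fish too, so that no listing was free of them. The other 16 oligos were listed only for pairings of D and wild fish. The D or Wa fish that chose them also enter the mean of D and Wa, so that this set is not free of the choice either. For AGXT2L1, listed for Ws versus Wa alone, a high level in the Wa fish raises that mean. None of these passed, 2 were at an unadjusted p under 0.05, and the lowest limma adjusted p was 0.219, for AGXT2L1, with W/D below the mean of D and Wa (-0.47 ± 0.15). The median over these 16 was -0.058. The proteasome alpha type-6 oligo that passed in D versus W/D also passed here, with W/D below the mean of D and Wa (-0.95 ± 0.19, limma adjusted p = 0.0191), but it had been listed for that hybrid pairing.

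Deviations of single fish from their group means leave out the group differences that chose the oligos. The size of these deviations did enter the study's ANOVA, as the spread within groups. The deviations were used to ask whether oligos with the same description behave alike. Among the oligos that passed the filter there were 22 pairs with the same description. Pearson's r of their deviations across fish was above 0 in all 22, with a median of 0.62 and a range of 0.12 to 0.79. In a permutation test of fish within groups (two-sided, 100000 resamples), 15 of the 22 passed a Benjamini-Hochberg adjusted p of 0.05 by r, and 13 by Spearman's rho. The 6 pairs of Ppif oligos had r of 0.53 to 0.77, with adjusted permutation p of 0.034 or less. The 10 pairs of endoplasmin oligos had r of 0.33 to 0.79 over 15 to 21 fish, and 5 of them passed. The 2 PXMP2 oligos had r = 0.75 and rho = 0.81 (adjusted permutation p = 0.0030 and 0.0022), and r was 0.72 without the 2 fish farthest from the median.

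The EIF3I pairs had r of 0.66, 0.54 and 0.37. Without the 2 fish farthest from the median these were 0.55, 0.14 and 0.20, so that the second relation rested on those fish. The UBE2C oligos had r = 0.50 and rho = 0.33 (adjusted permutation p = 0.034 and 0.19), and r was 0.45 without the 2 fish farthest from the median. An endoplasmin pair that passed by r (0.69 over 17 fish) had r of -0.014 without such fish. The 2 oligos of placental protein 11, whose hybrids differed, had r = 0.12 and rho = 0.19 (adjusted permutation p = 0.63 and 0.45). Oligos of a description share the arrays and the reference pool, and their target sequences were not used here, so that they may measure the same or related transcripts.

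**Figure D5:**
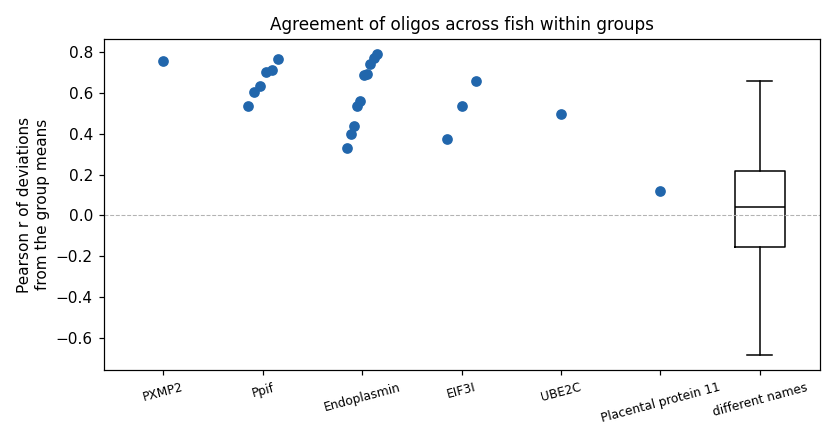
Pearson's r between deviations from the group means across fish, for pairs of oligos with the same description (points, 22 pairs) and for 406 pairs of oligos with different descriptions (box, quartiles and median; whiskers, full range). All same-description pairs lay above 0, and the pairs with different descriptions had a median r of 0.042.

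Between the 29 descriptions with a measured oligo, r of the deviations had a median of 0.042 over 406 pairs and a range of -0.68 to 0.66. None passed an adjusted permutation p of 0.05 by r or by rho, and the lowest adjusted p by r was 0.37. The highest r was that of the aminopeptidase with endoplasmin (r = 0.66, rho = 0.69, 17 fish, adjusted permutation p = 0.41 and 0.37), and the lowest that of cathepsin F with GCAT (r = -0.68, rho = -0.64, 22 fish, adjusted permutation p = 0.37 and 0.32). Of 5 pairs set against genes of the same pathway outside the 43 oligos, none passed either. Endoplasmin with calreticulin had r = 0.35 and rho = 0.41 (18 fish, adjusted permutation p = 0.38 and 0.32), and FAH with homogentisate 1,2-dioxygenase r = 0.26 and rho = 0.24 (24 fish, adjusted permutation p = 0.38 and 0.39). Canopy 2 with calreticulin had r = 0.63 and rho = 0.42 (21 fish, adjusted permutation p = 0.080 and 0.32), and r was 0.22 without the 2 fish farthest from the median. Calmegin with calreticulin had r = -0.30 and rho = -0.31 (21 fish, adjusted permutation p = 0.38 and 0.35). PSMD3 with proteasome alpha type-6 had r = 0.073 and rho = -0.06 (24 fish, adjusted permutation p = 0.76 and 0.80).

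The median SD among the fish of a group over the 41 oligos was 0.38 in D, 0.47 in W/D, 0.45 in Ws and 0.39 in Wa, against 0.38 to 0.39 over all oligos that passed the filter. In W/D replicate 3, 27 of the 38 oligos with a value were below the W/D mean, with a median deviation of -0.45, whereas over all oligos the median deviation of this fish was 0.0047. The deviation from the W/D mean in this fish was -1.28 for Canopy 2, -1.26 for an oligo of UBE2C, -1.08 for sarcosine dehydrogenase and -0.81 for PSMD3, against 0.87 for serine protease 27. The same limit holds for Ws replicate 5, where 30 of 40 oligos were below the Ws mean (median deviation -0.28, against -0.040 over all oligos). In the other fish the median deviation was between -0.19 and 0.17. Without W/D replicate 3, 6 oligos passed in W/D versus Wa and 10 in W/D versus Ws. Shares over all oligos are not given for this fit, so that nothing is read from these counts.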

How the data were processed

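Liver mRNA of 24 trout was measured on 2-colour oligoarrays. The authors labelled each fish with Cy5 and the Ws pool with Cy3, scanned the slides and deposited mean spot and background intensities with quality flags. Log2 ratios that the authors deposited (LOWESS, centred on the median of the samples) served only as an alternative. Columns of fold changes and p-values were not used. In R 4.3.3 with limma 3.58.1, intensities were corrected by normexp (offset 50) and normalised by loess within arrays. Control spots had no weight, and spots flagged for contamination, ignored pixels or saturation were set to missing. The filter asked for an unflagged Cy5 signal of 300 or more on the 6 arrays of any 1 group, and for a value in each group. The fit covered all 4 groups without a block, with Benjamini-Hochberg adjustment over 8679 oligos within each comparison. The script was tested on simulated data. Tables and figures were made with Python 3.11.15 and matplotlib 3.10.9.

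Names and categories come from the study's lists of different spots, and oligo sequences were not used. The members and the gene lists were chosen with earlier results of these data known. All members are named, each shown by its brightest oligo that passed the filter, except transglutaminase 2, whose oligo did not pass and is shown with its flags disregarded. Same-numbered fish of the 4 groups were read as sharing a slide, from the design text and sample codes, and the mean correlation of their deviations from the group means was 0.0086 to 0.067 between pairs of groups. The number of arrays limits the precision, and p-values measure only the spread between fish, which in D, W/D and Wa come from 1 cross each. Alternatives were the background correction, the normalisation, the filter, the flags, the slide block, the deposited ratios, the study's ANOVA with Tukey's test, each fish left out, and D replicates 4 and 6, whose titles carry the same fish number, averaged.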

Additional observations from a re-analysis of the deposited data

Results flagged for a closer look

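In 7 of 118 groups of fish with a measured oligo, 1 fish stood apart from the rest of its group by Dixon's criterion, which chance alone meets in about 1 of 20 groups. All values are log2 ratios to the Ws pool. For Canopy 2, Wa replicate 3 had -0.0046 and the other Wa fish between -1.14 and -0.86. For cathepsin F, D replicate 5 had 0.51 and the other D fish between 0.98 and 1.22. For the same oligo, W/D replicate 5 had 0.060 and the other W/D fish between 0.98 and 1.32. For SEPHS2, Wa replicate 5 had -0.27, against 0.53 to 0.69 in the other Wa fish. For sarcosine dehydrogenase, Ws replicate 2 had 0.59, against -0.63 to -0.21 in the other Ws fish. For TPRX1, Ws replicate 1 had 0.59, against -0.47 to -0.11 in the other Ws fish. For UBE2C, D replicate 4 had -0.39, against -1.55 to -1.20 in the other D fish.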

How the results depend on the processing

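Of the 60 differences past both thresholds, 37 passed with every fish left out in turn and 23 were lost without at least 1 fish. For the 40 shown by the brightest oligo, 1323 of 1327 recomputed values kept their direction and their size, and none changed sign. The 4 exceptions came without background correction, with elongation factor 1-beta at -1.85 in D versus Wa and serine protease 27 at -1.68 in D versus Wa, -1.73 in D versus Ws and -1.36 in W/D versus Ws. With signal required on all 24 arrays 10 members were left, of which 6 passed in D versus Wa, 3 in D versus Ws, 2 in D versus W/D, 0 in W/D versus Wa, 1 in W/D versus Ws and 0 in Ws versus Wa. Median centring gave 3 in D versus W/D and 2 in Ws versus Wa, and the deposited ratios gave 7 in W/D versus Wa, 14 in W/D versus Ws and 2 in Ws versus Wa. In Ws versus Wa, 0 passed without background correction and 3 from the Cy5 channel alone. Against the mean of D and Wa, 1 oligo passed without background correction, 1 with median centring and 1 from Cy5 alone, each of EIF3I. The cause of these shifts was not tested, apart from the fewer oligos of the stricter filter. Shares over all oligos are not given for these settings or for the fits with a fish left out. From the counts of members alone it cannot be told whether the shifts concern the chosen oligos or all oligos, and nothing is read from them.

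With the slide as a replicate block, 1 EIF3I oligo passed against the mean of D and Wa, where 0 passed without it, and 7 passed in D versus W/D. The block changed no other count. Leaving out 1 fish gave 18 to 25 members in D versus Wa, 15 to 21 in D versus Ws, 5 to 7 in D versus W/D, 3 to 6 in W/D versus Wa, 5 to 11 in W/D versus Ws (5 without Ws replicate 5), 0 to 2 in Ws versus Wa (0 without Ws replicate 2, Ws replicate 5 or Wa replicate 5, and 2 without Wa replicate 4) and 0 to 3 against the mean of D and Wa (3 without Wa replicate 6). The study's ANOVA with Tukey's test has no counterpart for that mean and was not run there. Signal near the background limits the size of a difference in D for elongation factor 1-beta, 4E-1A-binding protein, serine protease 27, PDLIM4, CCT7 and glutamine synthetase. In D it also does so for the brighter UBE2C oligo and the dimmer placental protein 11 oligo. The same holds for serine protease 27 in W/D and for glutamine synthetase, the brighter UBE2C oligo, PSMD3 and the brightest EIF3I oligo in Ws. It further holds for the dimmer EIF3I oligos in Wa and for transglutaminase 2 in the wild groups. The level of transglutaminase 2 in D is uncertain too, as its spot was marked on 2 D arrays.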
